A study of Mus musculus with 9 samples.

Results

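*Ero1l* and 8 partners of oxidative protein folding were followed through 9 primary mouse mammary tumours. The 9 genes were chosen by name for their roles, as the thiol oxidases of the endoplasmic reticulum (ER) and the disulfide isomerases and related enzymes that work with them. Earlier results of these data were known at that choice, and the study had already singled out *Ero1l* from its own comparison of these models. All 9 were among the 14108 genes listed in the count tables, and all 9 were among the 14086 genes that passed edgeR's filter on low counts. *Ero1l* (also called *Ero1a*) rose in both metastasis-derived models, 2.13-fold in LM1 and 16.7-fold in LM9 compared with HR1, while the isomerases and *Qsox1* moved by less than 2-fold in either direction.

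Secreted and membrane proteins acquire their disulfide bonds in the ER. A protein disulfide isomerase (PDI) passes a disulfide to the folding substrate, and an ERO1 oxidase re-oxidises the PDI and hands the electrons to oxygen, producing hydrogen peroxide. The peroxiredoxin PRDX4 can use that peroxide to oxidise further PDI molecules, and QSOX enzymes oxidise substrates directly, mainly in the Golgi and outside the cell. *Ero1l* is known as a hypoxia-responsive gene, and *Ero1b* as a gene of the unfolded protein response.

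The 3 tumour models were HR1, LM1 and LM9, with 3 tumours each. HR1 is a mouse mammary cancer line started from a tumour of a transgenic mouse in which a CAG promoter drives mutant *PIK3CA*, and its cells were sorted for GFP. LM1 and LM9 are each a single line, grown from lung metastases that arose from HR1 cells carrying the doxycycline-inducible *piggyBac* transposon, so a difference between models can belong to 1 line. The labels do not say whether the HR1 cells carried the transposase vector. For each tumour, 250000 cells in Matrigel:PBS were placed in the mammary fat pad of a female NOD/SCID mouse (NOD.CB17-Prkcd<scid>/J in the labels) aged 4 to 8 weeks. Tumours were resected before they reached 1500 mm3, and GFP-positive cells were sorted for stranded mRNA sequencing. The study set LM1 and LM9, which it classed as *Nfib* high-expression, against HR1, classed as *Nfib* low-expression.

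Total counts per tumour lay between 32393958 and 46681945, so that 3 counts corresponded to at most 0.0926 CPM (the count of a gene scaled to library size). Values are CPM after TMM scaling unless given as RPKM, the same CPM divided by the exon length in kilobases. Nothing in the labels says whether tumours were injected on separate days, so p-values measure the spread between these tumours only. The tumour labelled HR1 replicate 1 stood apart, with a correlation of log2 CPM of 0.797 and 0.766 with the other HR1 tumours against 0.942 between those 2 and 0.98 to 0.99 within LM1 and LM9. It also went against its class, with 1343 CPM of *Nfib* compared with 23.9 and 18.3 CPM in HR1 replicates 2 and 3. Differences of the 9 genes from HR1 in LM1 and in LM9 are therefore also given without it where the call or the direction changes or the value moves by over 1.5 times.

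*Ero1l* (Entrez gene 50527) encodes the ERO1 alpha oxidase, and its annotated span on the mouse build GRCm38 (mm10) runs on chromosome 14 from 45283087 to 45318572. The RefSeq sequence of the 250 bases before its transcription start is given here because *Ero1l* had the largest change of the 9 genes. The corresponding regions of *Ero1b* and *Pdia6* are set beside it as the paralog and an isomerase. Capitals mark the core of the hypoxia response element (ACGTG, read as CACGT on the other strand), the single-arm site of the nuclear factor I family (TTGGC or GCCAA) and the ER stress response element (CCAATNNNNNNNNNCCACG on either strand).
Ero1l, chr14:45318573-45318822, minus strand: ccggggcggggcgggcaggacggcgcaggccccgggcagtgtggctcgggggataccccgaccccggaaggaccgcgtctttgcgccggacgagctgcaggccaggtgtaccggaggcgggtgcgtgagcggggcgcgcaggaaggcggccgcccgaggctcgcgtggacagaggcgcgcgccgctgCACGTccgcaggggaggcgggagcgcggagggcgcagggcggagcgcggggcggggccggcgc
Ero1b, chr13:12565633-12565882, plus strand: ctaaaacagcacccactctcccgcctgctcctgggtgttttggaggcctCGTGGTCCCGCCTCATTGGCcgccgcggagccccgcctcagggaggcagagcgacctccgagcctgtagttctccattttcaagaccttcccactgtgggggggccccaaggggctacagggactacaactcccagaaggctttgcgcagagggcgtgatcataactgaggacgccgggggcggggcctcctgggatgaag
Pdia6, chr12:17266339-17266588, plus strand: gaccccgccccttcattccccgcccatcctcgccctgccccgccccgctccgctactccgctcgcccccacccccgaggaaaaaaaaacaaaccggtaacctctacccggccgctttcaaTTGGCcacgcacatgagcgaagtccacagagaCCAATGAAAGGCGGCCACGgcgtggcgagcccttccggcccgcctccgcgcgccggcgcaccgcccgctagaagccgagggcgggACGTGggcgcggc

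*Ero1l* expression was 37.2, 65.7 and 72.3 CPM in HR1 replicates 1, 2 and 3. In LM1 it was 111.0, 130.8 and 131.6 CPM, and in LM9 it was 896.5, 1232 and 805.6 CPM. The groups did not overlap, and the lowest LM9 tumour was above the highest LM1 tumour, which in turn was above every HR1 tumour. Between the lowest and the highest tumour *Ero1l* spanned 33.1-fold, while the span of the other 8 genes lay between 1.65-fold (*P4hb*) and 2.76-fold (*Ero1b*).

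Compared with HR1, LM1 tumours had more *Ero1l* by 1.09 on the log2 scale (standard error, s.e., 0.26, edgeR adjusted p = 0.0125, where edgeR's quasi-likelihood p-values were adjusted over all tested genes by Benjamini-Hochberg). In LM9 it was higher than in HR1 by 4.07 (s.e. 0.29, edgeR adjusted p = 4.7e-05). LM9 exceeded LM1 by 2.97 (s.e. 0.28, adjusted p = 5.4e-04). That last contrast also tests whether the 2 models differ in their change from HR1. By the size of the change *Ero1l* ranked 3881 of 14086 genes in LM1 versus HR1, 665 in LM9 versus HR1 and 531 in LM9 versus LM1. The *Ero1l* call held with each of the 9 tumours left out in turn, in all 3 comparisons. Without the tumour labelled HR1 replicate 1, which had the lowest *Ero1l* level, the change was 0.86 in LM1 and 3.83 in LM9. In bulk samples such as these, fewer cells of a type and less RNA per cell cannot be told apart.

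*Ero1b*, which encodes the ERO1 beta oxidase (chromosome 13, 12565818 to 12609533), was expressed at 3.06 to 8.45 CPM in HR1, 3.38 to 5.64 CPM in LM1 and 3.23 to 3.65 CPM in LM9. The 3 groups overlapped, and the highest value belonged to the tumour labelled HR1 replicate 1. The log2 difference was −0.16 (s.e. 0.39, edgeR adjusted p = 0.771) in LM1 versus HR1 and −0.59 (s.e. 0.39, adjusted p = 0.254) in LM9 versus HR1. Leaving out the tumour labelled HR1 replicate 1 turned the LM1 value to 0.36 and the LM9 value to −0.08, neither past the threshold. Per kilobase of exon, *Ero1l* made up 84.7% to 96.7% of the summed ERO1 transcripts in HR1, 96.5% to 98.0% in LM1 and 99.6% to 99.8% in LM9.

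**Figure D1:**
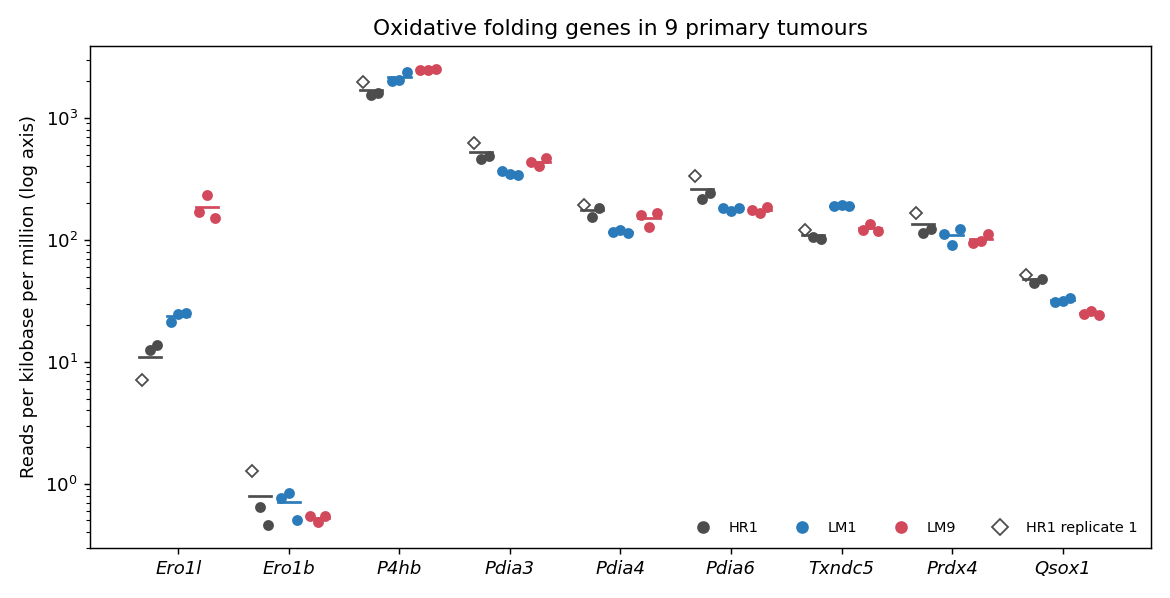
RPKM (log axis) of the 9 genes in each tumour. Points are single tumours, bars are group means (n = 3), and the open diamond is the tumour labelled HR1 replicate 1. *Ero1l* is the one gene whose groups are spread over more than a decade, from 7.04 in the lowest HR1 tumour to 233 in the highest LM9 tumour.

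Of the 9 genes, 2 rose (*Ero1l* and *Txndc5*) and 4 fell (*Pdia3*, *Pdia4*, *Pdia6* and *Qsox1*) in LM1 versus HR1, while 35.5% of all tested genes were called in that comparison. In LM9 versus HR1, 2 rose (*Ero1l* and *P4hb*) and 2 fell (*Pdia6* and *Qsox1*), against 42.3% of all genes. In LM9 versus LM1, *Ero1l* rose and *Txndc5* fell, against 22.0% of all genes. Without the tumour labelled HR1 replicate 1, 3 rose and 2 fell in that comparison, and calls among all genes went from 3102 to 6413. With both LM models against HR1, 3 rose (*Ero1l*, *P4hb* and *Txndc5*) and 4 fell (*Pdia3*, *Pdia4*, *Pdia6* and *Qsox1*), against 43.6% of all genes. There the *P4hb*, *Pdia3* and *Pdia4* calls held in 6, 4 and 5 of the 9 fits that each left out 1 tumour. For *Pdia3*, *Pdia4* and *Txndc5* the tumours of the LM models overlapped with those of HR1. The comparisons share tumours, so their counts are not independent. *Ero1l* was the only one of the 9 called in each of the 4 comparisons. The median log2 fold change of the 9 genes was −0.31 in LM1 versus HR1, −0.27 in LM9 versus HR1 and −0.03 in LM9 versus LM1, beside −0.04, −0.05 and 0.01 over all genes tested. The first 2 of these medians were −0.125 and −0.118 when the tumour labelled HR1 replicate 1 was left out.

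**Figure D2:**
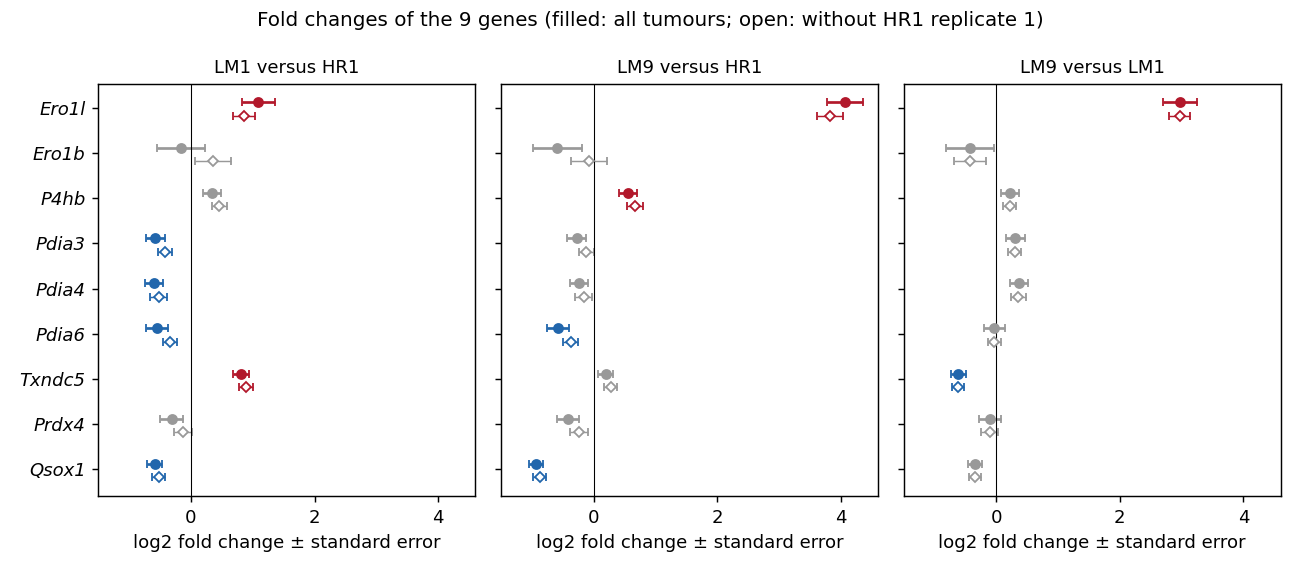
Log2 fold changes of the 9 genes with standard errors from edgeR in 3 comparisons. Filled circles use all 9 tumours and open diamonds leave out the tumour labelled HR1 replicate 1. The colour of both marks is the call with all 9 tumours, red higher, blue lower and grey not called. *Ero1l* moves from 1.09 in LM1 to 4.07 in LM9 versus HR1, while the other 8 genes stay within 1 log2 unit of 0.

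Among the isomerases, *P4hb* (chromosome 11, 120560298 to 120573253) encodes PDI itself, the main partner of ERO1 and also a subunit of prolyl 4-hydroxylase. Its expression was 5587, 4393 and 4592 CPM in HR1, 5790, 5804 and 6807 CPM in LM1, and 7084, 7122 and 7233 CPM in LM9. Every LM9 tumour was above every LM1 tumour, and every LM1 tumour above every HR1 tumour. The difference from HR1 was 0.34 in LM1 (s.e. 0.15, edgeR adjusted p = 0.105) and 0.56 in LM9 (s.e. 0.15, adjusted p = 0.0164). The LM1 difference passed the threshold without the tumour labelled HR1 replicate 1 (0.46, edgeR adjusted p = 0.0114) and with scaling by library size only (0.42, edgeR adjusted p = 0.0367). The LM9 call was narrowly lost when any LM9 tumour was left out, with adjusted p = 0.0530, 0.0540 and 0.0579 without LM9 replicate 1, 2 and 3.

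*Pdia3* (chromosome 2, 121413902 to 121438687), which encodes the isomerase of the calnexin and calreticulin cycle for glycoproteins, lay at 1966, 1452 and 1514 CPM in HR1, at 1152, 1086 and 1071 CPM in LM1, and at 1356, 1258 and 1478 CPM in LM9. It was lower in LM1 than in HR1 by −0.58 on the log2 scale (s.e. 0.15, edgeR adjusted p = 0.0196). In LM9, whose tumours overlapped with HR1, the difference was −0.27 (edgeR adjusted p = 0.186), and −0.12 with the tumour labelled HR1 replicate 1 left out. The LM1 call was lost without LM1 replicate 1, 2 or 3 (adjusted p = 0.0584, 0.0616 and 0.0638), and the differences stayed between −0.56 and −0.61.

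*Pdia4* (chromosome 6, 47796141 to 47813512), an isomerase with several thioredoxin domains, followed a like order. Its expression was 461.4, 370.2 and 439.5 CPM in HR1, 278.5, 290.8 and 272.7 CPM in LM1, and 382.6, 305.0 and 394.9 CPM in LM9. The LM1 tumours were below all others, with a difference from HR1 of −0.59 (s.e. 0.15, edgeR adjusted p = 0.0144), while the LM9 difference was −0.23 (adjusted p = 0.231). The LM1 call was lost without LM1 replicate 1 (adjusted p = 0.0569). For neither *Pdia3* nor *Pdia4* did the contrast between LM9 and LM1 pass the threshold (0.31 with adjusted p = 0.181 and 0.36 with adjusted p = 0.108, edgeR's test). Without the tumour labelled HR1 replicate 1 both did, at 0.30 (adjusted p = 0.0394) and 0.36 (adjusted p = 0.0430).

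*Pdia6* (chromosome 12, 17266589 to 17284785), an isomerase that works with the chaperone BiP, was 1246, 802.9 and 907.9 CPM in HR1, 685.0, 646.7 and 687.7 CPM in LM1, and 656.9, 618.2 and 702.7 CPM in LM9. Both LM groups lay below HR1 and overlapped with each other. The difference was −0.55 in LM1 (s.e. 0.17, edgeR adjusted p = 0.0372) and −0.58 in LM9 (s.e. 0.17, adjusted p = 0.0266). Without the tumour labelled HR1 replicate 1, which had the highest *Pdia6* level, the calls stayed and the differences were −0.34 and −0.37. The LM1 call was kept without any one HR1 tumour and lost without any one LM1 or LM9 tumour (adjusted p = 0.0618 to 0.105). The LM9 call was lost without LM9 replicate 1, 2 or 3 (adjusted p = 0.0817, 0.0822 and 0.0606).

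*Txndc5* (chromosome 13, 38500266 to 38528824) encodes an isomerase also known as ERp46. Its expression was 543.0, 473.6 and 457.4 CPM in HR1, 851.5, 867.0 and 856.8 CPM in LM1, and 542.6, 608.1 and 534.5 CPM in LM9. The LM1 tumours were above all others, and HR1 and LM9 overlapped. *Txndc5* was higher in LM1 than in HR1 by 0.81 (s.e. 0.13, edgeR adjusted p = 0.00201) and lower in LM9 than in LM1 by −0.61 (s.e. 0.13, adjusted p = 0.0122), while LM9 differed from HR1 by 0.19 (adjusted p = 0.246). The contrast of LM9 and LM1 did not pass without LM1 replicate 1, LM9 replicate 1 or LM9 replicate 3 (adjusted p = 0.0538, 0.0613 and 0.0622). The order of the models for *Txndc5* was thus not the order for *Ero1l*.

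*Prdx4* (chromosome X, 155323918 to 155342272), which encodes the ER peroxiredoxin, was 350.4, 241.2 and 260.1 CPM in HR1, 234.0, 191.6 and 260.4 CPM in LM1, and 199.4, 205.0 and 234.1 CPM in LM9. LM1 overlapped with both other groups, and the LM9 tumours were below the HR1 tumours. No comparison passed the threshold for *Prdx4*, with differences of −0.31 in LM1 versus HR1 (s.e. 0.18, edgeR adjusted p = 0.210) and −0.42 in LM9 versus HR1 (s.e. 0.18, adjusted p = 0.0947). When the tumour labelled HR1 replicate 1, which had the highest level, was left out, these were −0.125 and −0.23.

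*Qsox1* (chromosome 1, 155778155 to 155812899), the sulfhydryl oxidase that fuses a thioredoxin and an oxidase module, went the opposite way to *Ero1l*. It was 428.2, 367.2 and 398.8 CPM in HR1, 257.3, 259.8 and 277.7 CPM in LM1, and 204.9, 217.7 and 202.3 CPM in LM9. The groups did not overlap, and the order of the models was HR1, LM1 and LM9 from high to low. *Qsox1* was lower than in HR1 by −0.59 in LM1 (s.e. 0.12, edgeR adjusted p = 0.00570) and by −0.93 in LM9 (s.e. 0.12, adjusted p = 6.5e-04), a 1.91-fold decrease. Both calls held with each tumour left out. The step from LM1 to LM9 was −0.35 (s.e. 0.12, edgeR adjusted p = 0.0638) and passed the threshold under DESeq2 (adjusted p = 0.00802), with scaling by library size only (edgeR adjusted p = 0.0296) and without the tumour labelled HR1 replicate 1 (edgeR adjusted p = 0.0152).

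Levels were compared between genes only per kilobase of exon. In HR1, *P4hb* led with 1698 ± 224 RPKM (mean ± s.d., n = 3), followed by *Pdia3* with 524 ± 89.4 and *Pdia6* with 263 ± 61.9. *Ero1l* ranked 8 of 9 in HR1, at 11.1 ± 3.53, above *Ero1b* at 0.793 ± 0.423. In LM1 it again ranked 8, at 23.6 ± 2.21, and lay below *Qsox1* at 31.9 ± 1.34 with no overlap. In LM9 it ranked 3 of 9 at 185 ± 42.5, after *P4hb* (2498 ± 27.1) and *Pdia3* (434.5 ± 35.1). Its neighbours below it in LM9, *Pdia6* at 176 ± 11.3 and *Pdia4* at 150 ± 20.3, did not differ from it beyond the spread of its 3 tumours.

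The balance between oxidase and isomerase transcripts changed accordingly. The summed level of *Ero1l* and *Ero1b* was 11.9 ± 3.11 RPKM in HR1, 24.3 ± 2.16 in LM1 and 186 ± 42.5 in LM9 (n = 3 each). The summed level of the 5 isomerases (*P4hb*, *Pdia3*, *Pdia4*, *Pdia6* and *Txndc5*) was 2771 ± 400, 2983 ± 195 and 3384 ± 78.2 in the same order. The isomerase sum divided by the ERO1 sum, both in RPKM, was 388, 189 and 185 in HR1 replicates 1, 2 and 3. In LM1 this ratio was 132, 112 and 126, in LM9 it was 19.8, 14.2 and 22.7, and the groups did not overlap. These ratios are a description of transcripts and were not tested.

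**Figure D3:**
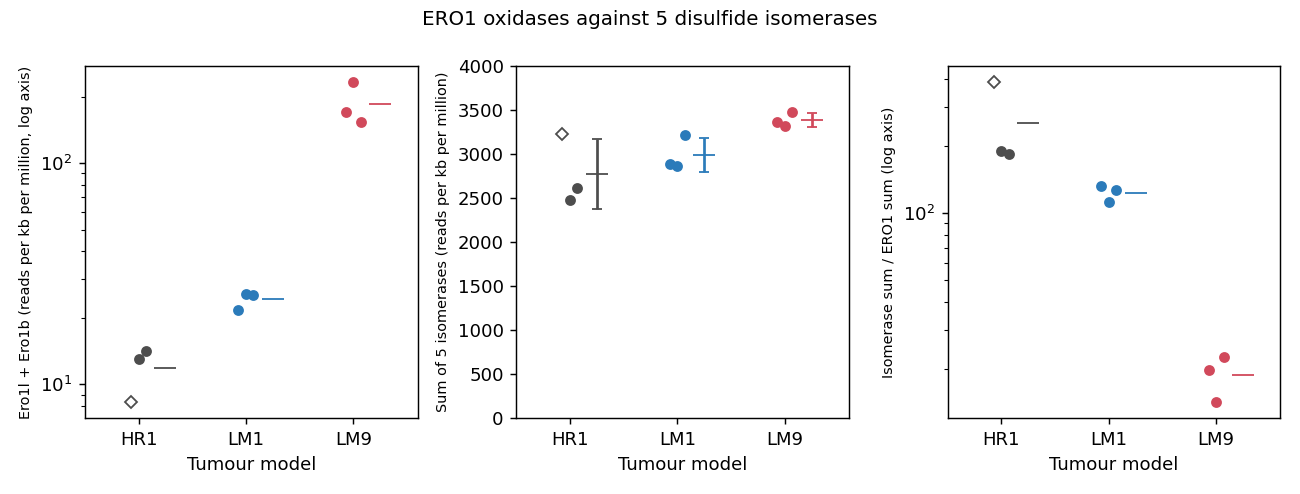
Summed *Ero1l* and *Ero1b* level (left, log axis), summed level of 5 isomerases (middle, linear axis with mean ± s.d.) and their ratio (right, log axis) in each tumour, from RPKM. Points are single tumours, bars are means of 3 and the open diamond is the tumour labelled HR1 replicate 1. The isomerase sum ranges from 2472 to 3470 over the 9 tumours, while the ratio falls from 185 to 388 in HR1 to 14.2 to 22.7 in LM9.

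Within the isomerases, *P4hb* made up 61.4% ± 0.783 of the sum in HR1, 71.8% ± 2.08 in LM1 and 73.8% ± 1.11 in LM9 (mean ± s.d., n = 3). *Txndc5* made up 6.42% ± 0.423 in LM1, compared with 3.97% ± 0.266 in HR1 and 3.70% ± 0.339 in LM9. The ratio of *Prdx4* to *Ero1l* per kilobase was 23.6, 9.21 and 9.03 in HR1, 5.29, 3.68 and 4.97 in LM1, and 0.558, 0.417 and 0.729 in LM9. *Prdx4* transcripts thus outnumbered *Ero1l* transcripts in each HR1 and LM1 tumour, and *Ero1l* transcripts outnumbered *Prdx4* transcripts in each LM9 tumour.

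The windows from 250 bases before to 50 bases after the annotated starts were searched for 4 motifs on both strands, with RefSeq sequence of GRCm38.p6. The hypoxia response element core ACGTG was found in the windows of 5 of the 9 genes (*Ero1l*, *P4hb*, *Pdia6*, *Prdx4* and *Txndc5*), and in 19.6% of all 32851 promoter windows. *Txndc5* has 3 annotated starts and so had more chances than the others. In *Ero1l* the match begins at position −63 from the start, and in *P4hb* at −56. The ER stress response element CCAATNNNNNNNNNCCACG was found in *Ero1b* at −201 and in *Pdia6* at −98, and in 0.119% of all windows. The single-arm site TTGGC of the nuclear factor I family, to which *Nfib* belongs, overlaps this element by its last bases in *Ero1b*. It was found in the windows of 8 of the 9 genes and in 46.7% of all windows. In *Ero1l* its single match lies after the start, at position 37. The paired site TTGGCNNNNNGCCAA was in the windows of 0 of the 9 genes and in 0.0365% of all windows. These matches describe letters in the windows, and they were not tested against the changes in expression.

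Genes with related roles were examined in lists of known pathway members, whose counts are to be read against the 35.5%, 42.3% and 22.0% of all tested genes called in LM1 versus HR1, LM9 versus HR1 and LM9 versus LM1. Of 5 further ER enzymes that make disulfides or use oxidants, 4 were listed in the tables, with 1 higher in LM1 versus HR1 (median 0.32) and 1 lower in LM9 versus HR1 (median −0.21). With the tumour labelled HR1 replicate 1 left out, 3 were higher in LM1 (median 0.54), while in LM9 1 was higher, 0 were lower and the median turned to 0.05. In that fit 7453 and 7862 of all genes were called in LM1 and LM9 versus HR1, in place of 4994 and 5958. *Qsox2*, the paralog of *Qsox1*, rose in LM1 versus HR1 (0.85, edgeR adjusted p = 0.0291, called in 5 of the 9 fits that each left out 1 tumour), with 21.1, 22.3 and 41.6 CPM in HR1 and 47.6, 52.4 and 53.3 CPM in LM1. *Gpx8*, an ER glutathione peroxidase, fell in LM9 versus HR1 (−0.53, adjusted p = 0.0452) and in LM9 versus LM1 (−1.02, adjusted p = 0.00737). Its levels were 201.6 to 291 CPM in HR1, 269.6 to 383.5 CPM in LM1 and 152.5 to 169 CPM in LM9. The *Gpx8* call in LM9 versus HR1 held in 4 of the 9 fits that each left out 1 tumour. It was lost without the tumour labelled HR1 replicate 1 (−0.35, edgeR adjusted p = 0.0726). The *Gpx8* difference between LM1 and HR1 then passed the threshold (0.68, edgeR adjusted p = 0.00479, compared with 0.0695 with all tumours).

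Of 18 further PDI family genes, 13 were tested. In LM1 versus HR1, 1 rose and 3 fell, with a median log2 fold change of −0.19, while 3 rose and 3 fell and the median turned to 0.04 when the tumour labelled HR1 replicate 1 was left out. In LM9 versus HR1, none rose and 1 fell, with a median of −0.14 beside −0.05 over all genes. With all tumours, the calls were thus 4 of 13 genes beside 35.5% of all genes in LM1, and 1 of 13 beside 42.3% in LM9. That gene was *Tmx2*, a membrane-anchored thioredoxin-related protein, at 14.4, 22.2 and 18.1 CPM in HR1 and 11.9, 12.5 and 12.3 CPM in LM9 (−0.58, edgeR adjusted p = 0.0446). In LM9 versus LM1, 2 rose and 1 fell. The *Tmx2* call held in 1 of the 9 fits that each left out 1 tumour. Of the 13 genes, 2 rose and 1 fell in LM9 versus HR1 without the tumour labelled HR1 replicate 1. Leaving it out raised the calls among all genes from 4994 to 7453 in LM1 versus HR1 and from 5958 to 7862 in LM9 versus HR1.

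Of 8 tested genes of the lectin chaperone cycle, which retains glycoproteins until they are folded, 1 rose and 3 fell in LM9 versus HR1. Their median log2 fold change was −0.35. With all tumours, 4 of 8 genes were thus called, near the 42.3% of all genes. Without the tumour labelled HR1 replicate 1, 2 rose and 5 fell, and calls among all genes rose from 5958 to 7862. *Calr*, the lectin chaperone calreticulin, fell from 5502, 3505 and 3653 CPM in HR1 to 2363, 2114 and 2559 CPM in LM9 (−0.85, edgeR adjusted p = 0.00951). *Tapbp*, the tapasin that joins PDIA3 in loading peptides onto MHC class I, rose in LM9 versus HR1 (1.01, adjusted p = 0.0262) and in LM9 versus LM1 (1.02, adjusted p = 0.0421). Those 2 calls held in 5 and 3 of the 9 fits that each left out 1 tumour. *Tapbp* was 258.5, 468.7 and 680.8 CPM in HR1, 425.7 to 487.9 CPM in LM1 and 841.3 to 1071 CPM in LM9. *Uggt2*, a folding sensor for glycoproteins, had 8, 5 and 4 counts in HR1, 12, 3 and 10 counts in LM1, and 0 counts in each LM9 tumour, too few to give a fold.

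Among the partners of P4HB in other enzymes, 0 of 4 were called against HR1, and *P4ha1* and *P4ha2*, the catalytic subunits of prolyl 4-hydroxylase, rose in LM9 versus LM1. *P4ha1* was 434.8, 609.2 and 718.2 CPM in HR1, 439.9, 438.0 and 469.5 CPM in LM1, and 758.5, 756.1 and 770.3 CPM in LM9. The LM9 tumours were above all others, with a difference of 0.76 from LM1 (s.e. 0.18, edgeR adjusted p = 0.0193). The *P4ha1* and *P4ha2* calls each held in 3 of the 9 fits that left out 1 tumour. Of the 4 genes, 2 fell in LM1 versus HR1 and 1 in LM9 versus HR1 when the tumour labelled HR1 replicate 1 was left out. Calls among all genes then rose from 4994 to 7453 and from 5958 to 7862 in these 2 comparisons.

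Of 14 ER chaperones and genes of the unfolded protein response, 3 rose (*Ddit3*, *Dnajb9* and *Atf4*) and 1 fell (*Xbp1*) in LM9 versus HR1, with a median of −0.05. These 4 of 14 genes stand beside 42.3% of all genes called. Leaving out the tumour labelled HR1 replicate 1 gave 5 higher and 1 lower, and the median turned to 0.24. Calls among all genes then rose from 5958 to 7862. The *Atf4* call held in 2 of the 9 fits that each left out 1 tumour and the *Dnajb9* call in 6. In LM9 versus LM1, 2 of the 14 rose and 0 fell, with a median of 0.32, while 22.0% of all genes were called. Without the tumour labelled HR1 replicate 1, 7 rose and 4 fell there, and calls among all genes rose from 3102 to 6413. *Ddit3*, which encodes the stress transcription factor CHOP, was 74.5, 141.7 and 81.6 CPM in HR1, 109.0, 98.0 and 110.1 CPM in LM1, and 460.7, 427.1 and 413.0 CPM in LM9. It rose in LM9 versus HR1 (2.13, edgeR adjusted p = 3.8e-04) and in LM9 versus LM1 (2.04, adjusted p = 0.00141), while the LM1 difference from HR1 was 0.09 (adjusted p = 0.783). *Dnajb9*, an ER co-chaperone, rose in LM9 versus HR1 (0.88, edgeR adjusted p = 0.0258). *Xbp1*, a transcription factor of the same response, fell (−1.47, adjusted p = 0.00704), and by less (−0.93) without the tumour labelled HR1 replicate 1. *Hspa5*, which encodes BiP, was 2252 to 2491 CPM in HR1, 1903 to 2260 CPM in LM1 and 2453 to 2643 CPM in LM9, and no comparison passed the threshold (0.09 in LM9 versus HR1, edgeR adjusted p = 0.616).

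Of 12 known hypoxia targets, 4 rose in LM1 versus HR1, 8 in LM9 versus HR1 and 8 in LM9 versus LM1, and 0 fell. Of all tested genes 16.7%, 20.4% and 11.5% were called higher, and 35.5% were called in either direction in LM1 versus HR1, near the 4 of 12 targets there. Without the tumour labelled HR1 replicate 1, 5 rose and 2 fell in LM1 versus HR1, while the count for LM9 versus HR1 was again 8. Leaving out that tumour raised the calls among all genes from 4994 to 7453 and from 5958 to 7862 in these 2 comparisons. The median log2 fold change of the targets was 0.16, 1.77 and 1.38 in the 3 comparisons, beside −0.04, −0.05 and 0.01 over all genes. The median in LM1 versus HR1 was 0.045 with that tumour left out, and in LM9 versus HR1 it was 1.52. *Vegfa*, the angiogenic growth factor, was 40.3, 127.3 and 125.5 CPM in HR1, 203.1, 313.7 and 217.6 CPM in LM1, and 859.1, 654.8 and 551.6 CPM in LM9, the same order of models as *Ero1l*. It rose in LM9 versus HR1 by 2.82 and in LM9 versus LM1 by 1.49 (edgeR adjusted p = 0.00150 and 0.0329), calls that held in 9 and 3 of the 9 fits that each left out 1 tumour. *Adm*, the vasoactive peptide adrenomedullin, rose in LM9 versus HR1 by 3.84 (edgeR adjusted p = 7.1e-04). *Ndrg1*, a stress-responsive gene, rose in all 3 comparisons, by 1.09, 2.88 and 1.79 in LM1 versus HR1, LM9 versus HR1 and LM9 versus LM1.

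**Figure D4:**
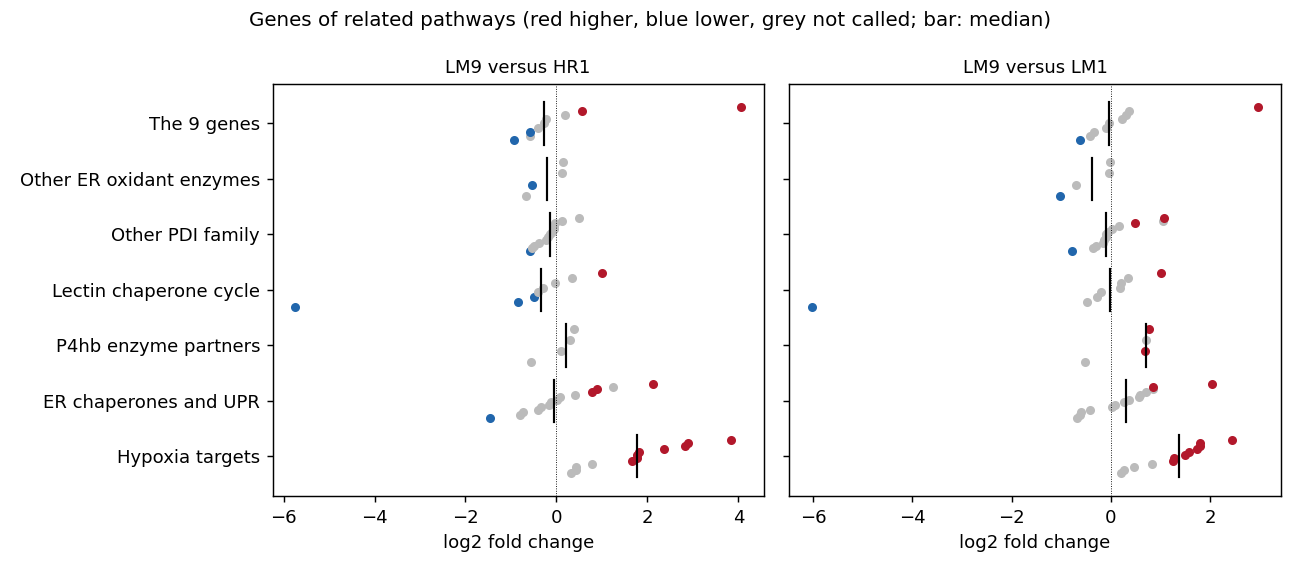
Log2 fold changes of the 9 genes and of 6 lists of related genes in LM9 versus HR1 (left) and LM9 versus LM1 (right). Each point is a gene, red called higher, blue called lower and grey not called by edgeR, and the bar is the median of the list. The hypoxia targets lie to the right of 0 with medians of 1.77 and 1.38. The medians of the PDI family and the ER chaperones lie near 0 in LM9 versus HR1, at −0.14 and −0.05. In LM9 versus LM1 these 2 medians are −0.095 and 0.32.

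The transcripts of the regulators did not share one pattern. *Hif1a*, the oxygen-regulated subunit of the hypoxia factor, was 79.4, 96.0 and 126 CPM in HR1, 309.0, 359.3 and 297.0 CPM in LM1, and 269.4, 243.4 and 244.2 CPM in LM9. It rose in LM1 (1.68, adjusted p = 3.9e-04) and in LM9 (1.33, adjusted p = 8.8e-04) versus HR1 by edgeR's test, and LM9 lay below LM1 in each tumour with a difference of −0.35 that did not pass (adjusted p = 0.185). *Arnt*, its partner subunit, and *Epas1*, its paralog, were called higher in LM9 versus HR1 (0.45 and 1.00, edgeR adjusted p = 0.0437 and 0.0499), and each of these 2 calls held in 2 of the 9 fits that left out 1 tumour. The *Epas1* call was lost without the tumour labelled HR1 replicate 1 (edgeR adjusted p = 0.0600) and the *Arnt* call was kept. *Nfib* was 786.0, 791.3 and 579.3 CPM in LM1 and 532.1, 583.3 and 420.6 CPM in LM9. With the tumour labelled HR1 replicate 1 in the group, it differed from HR1 by 0.64 in LM1 and 0.15 in LM9 (edgeR adjusted p = 0.728 and 0.935). Without it the differences were 5.10 and 4.61 (edgeR adjusted p = 7.6e-07 and 8.0e-07). That tumour had both the highest *Nfib* and the lowest *Ero1l* level of the 9.

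Over the 9 tumours, the genes whose log2 CPM followed *Ero1l* most closely among the 10531 genes that averaged 5 CPM or more were *Stard4* (Pearson r = 0.990), *Ndrg1* (0.987), *Herc6* (0.984), *Bcl2l2* (0.982) and *Tnf* (0.982). These tumours fall into 3 models and share the tumour model as a source of likeness, so r is a description with no test. *Stard4*, a sterol carrier, had a mean of 8.85 CPM in HR1, 10.7 CPM in LM1 and 23.3 CPM in LM9. *Herc6* had means of 18.2, 34.9 and 180 CPM in the same order, and *Tnf*, the inflammatory cytokine, of 1.24, 3.56 and 35.6 CPM. *Tnf* reached the average of 5 CPM only through LM9, the model with the most *Ero1l*, so the filter bears on its place here. Among the 9 genes, r with *Ero1l* was 0.793 for *P4hb* and −0.903 for *Qsox1*.

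Markers of other cell types also differed between the models. In LM9 versus HR1, 20.4% of all tested genes were called higher and 21.9% lower, and the marker counts are to be read against these shares. Without the tumour labelled HR1 replicate 1, calls among all genes rose from 5958 to 7862 in that comparison. The summed level of 9 listed endothelial markers was 11.6 to 39.9 CPM in HR1, 167 to 230 CPM in LM1 and 261 to 298 CPM in LM9. In LM9 versus HR1, 2 of the 9 rose (*Cdh5* and *Kdr*, by 5.26 and 4.84) and 3 fell (5 fell without the tumour labelled HR1 replicate 1), and *Cdh5* (228 to 253.5 CPM) and *Kdr* (23.3 to 37.3 CPM) made up most of the sum in LM9. Of the other 7, *Pecam1* was 0.383 to 0.794 CPM in LM9, and *Tie1*, *Emcn*, *Cldn5*, *Vwf* and *Esam* were no more than 0.215, 0.137, 0.129, 0.458 and 0.984 CPM. *Egfl7* was 4.59 to 8.24 CPM in LM9, above its 2.58 to 2.92 CPM in LM1, and its difference from HR1 (2.39 to 8.17 CPM) was 0.34 (edgeR adjusted p = 0.550). The median log2 fold change of the list was −1.81 in LM9 versus HR1, opposite to the sum. The 10 leukocyte markers summed to 185 to 738 CPM in HR1, 166.5 to 173 CPM in LM1 and 199 to 247 CPM in LM9. *Ptprc* was 2.29 to 11.3 CPM over all tumours. In LM9 versus HR1, 8 of the 10 fell, and 7 fell without the tumour labelled HR1 replicate 1. *Cd68* was 15.9 to 17.9 CPM in LM1 and 107 to 138 CPM in LM9 and rose between them (2.89, edgeR adjusted p = 0.00726), while the median of the list in that comparison was −0.59. The 10 fibroblast markers summed to 23420 to 35250 CPM in HR1, 10400 to 13830 CPM in LM1 and 8976 to 10550 CPM in LM9, and 9 of the 10 fell in LM9 versus HR1. *Col1a1* alone was 6359 to 12670 CPM over all tumours. Of 10 epithelial markers 6 were listed, and these summed to 7.55 to 121 CPM in HR1, 157.5 to 181 CPM in LM1 and 14.5 to 17.97 CPM in LM9. Most of that sum, except in the tumour labelled HR1 replicate 1, was the basal keratin *Krt14*, at 1.56, 31.4 and 108.9 CPM in HR1, 152.0 to 175 CPM in LM1 and 12.2 to 15.4 CPM in LM9. In cells labelled as a breast cancer line, *Epcam* and *Cdh1* did not exceed 4.49 and 1.197 CPM in any tumour, and *Krt5* was 0.0998 to 10.7 CPM in HR1 with 0 counts in 2 LM9 tumours. The part of these differences in the levels of *Ero1l* and its partners was not tested.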

How the data were processed

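The authors aligned single-end reads of 50 nt to mm10 with STAR, counted 5′ ends over the exon union of each gene with qCount of QuasR, and deposited 1 table of whole-number counts per tumour for 9 tumours (3 groups, from the labels). Versions, the strand setting and the filter behind the 14108 listed genes are not given in the sources used here.

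Counts were scaled by TMM and tested with edgeR 4.0.16 in R 4.3.3 (quasi-likelihood F-test, robust) in 1 model over the 3 groups, after edgeR's filter had left out 22 genes. Benjamini-Hochberg adjustment ran over 14086 genes, and an adjusted p under 0.05 was called. The script was tested on simulated data. Levels between genes are CPM per kilobase of the exon union of GENCODE vM21. Symbols are from GENCODE vM21, with RefSeq used where it gave none or named a listed gene otherwise. Coordinates and promoters are from RefSeq GRCm38.p6. All 9 genes matched a promoter entry. Likeness to *Ero1l* used log2 CPM with a prior count of 0.5.

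The 9 genes and all lists were chosen with earlier results of these data known. The rule named the 9 genes, up to 3 called genes per list by size in LM9 versus HR1, the 5 genes most like *Ero1l*, *P4ha1* and 4 regulators; *Qsox2*, *P4ha2*, *Atf4*, *Hspa5* and the marker genes were named after their values were seen. Alternatives were RLE factors, library size only, no filter or 1 CPM in 3 tumours, limma-voom (limma 3.58.1), DESeq2 1.42.0, the replicate number as a block, only the groups compared, and each tumour left out in turn.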

Additional observations from a re-analysis of the deposited data

Results flagged for a closer look

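*Ero1l* and *Txndc5* differed between LM1 and LM9 in their change from HR1. For *Ero1l* the change in LM9 exceeded that in LM1 by 2.97 on the log2 scale (edgeR adjusted p = 5.4e-04), and 3 of 3 LM9 tumours lay above the LM1 tumours. For *Txndc5* the change in LM9 was smaller than that in LM1, with a difference of −0.61 (edgeR adjusted p = 0.0122), and 3 of 3 LM9 tumours lay below the LM1 tumours. The *Txndc5* difference did not pass the threshold in 3 of the 9 fits that each left out 1 tumour, and the *Ero1l* difference passed in 9 of 9. Each model is a single line, so the line and its metastatic origin cannot be told apart.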

How the results depend on the processing

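*Ero1l* kept its direction and its side of the threshold in every comparison under each alternative that was run. With only the groups compared in the fit, calls among the 9 genes went from 6 to 4 in LM1 versus HR1 and from 2 to 5 in LM9 versus LM1. In LM1 versus HR1, *Pdia3* and *Pdia6* were lost (edgeR adjusted p = 0.0661 and 0.100). In LM9 versus HR1, *P4hb* and *Pdia6* were lost (edgeR adjusted p = 0.0546 and 0.0725), and *Ero1l* and *Qsox1* were kept. Calls among all genes went from 4994 to 3008 in LM1 versus HR1 and from 3102 to 7709 in LM9 versus LM1, and calls among the listed genes went from 13 to 6, from 18 to 11 and from 18 to 38 in LM1 versus HR1, LM9 versus HR1 and LM9 versus LM1; the cause was not tested. Scaling by library size only added the calls of *P4hb* in LM1 versus HR1 (0.42) and *Qsox1* in LM9 versus LM1 (−0.41). With counts not divided by length, the isomerase to ERO1 ratio was 70.3 in LM1 and 10.7 in LM9, in place of 124 and 18.9. With 1 tumour left out, calls among the 9 genes ranged from 3 to 7, 2 to 4, 1 to 5 and 5 to 7 in LM1 versus HR1, LM9 versus HR1, LM9 versus LM1 and both LM models versus HR1. Calls among all genes ranged from 3121 to 7453, 3768 to 7862, 1150 to 6413 and 4928 to 7902, and among listed genes from 7 to 27, 12 to 26, 8 to 32 and 13 to 27. The highest count of each of these came without the tumour labelled HR1 replicate 1. The sign of the *Ero1b* difference, which was never called, turned in LM1 versus HR1 without HR1 replicate 1 (0.36) or LM1 replicate 3 (0.03), and with both LM models without HR1 replicate 1 (0.14). Over the fits with 1 tumour left out these differences ranged from −0.44 to 0.36 and from −0.65 to 0.14. The scaling alternatives moved the median of all genes by less than 0.1.

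Tumours with the same replicate number did not deviate together (correlations of −0.098 to 0.323), and not every tumour correlated best with its own number. With the replicate number as a block, the *Pdia6* call in LM1 versus HR1 was lost (edgeR adjusted p = 0.0539). No other call among the 9 genes changed in the 4 comparisons. Of the calls given for other genes, those of *Tmx2* and *Arnt* in LM9 versus HR1 (edgeR adjusted p = 0.0793 and 0.0796) and of *Vegfa*, *Tapbp* and *P4ha2* in LM9 versus LM1 (0.0508, 0.0622 and 0.0563) were lost.

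The number of tumours, 3 per model, limits the precision of every difference, and *Ero1b* had 119 to 254 counts per tumour.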
